A study of Zea mays with 2 samples.

Results

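The distal ends of maize chromosomes 2 to 10 were described through the methylation peaks that start within 10 Mb of either end of each chromosome. A peak on chromosomes 2 to 10 was counted as terminal when its start lay below 10 Mb, or no more than 10 Mb below the last peak end of that chromosome in either tissue. This gave 28339 of 353472 embryo peaks (8.02%) and 9596 of 115621 endosperm peaks (8.30%). Of these, 14694 embryo and 5102 endosperm peaks lay at the 9 short-arm ends, which have the low coordinates by maize convention, and 13645 embryo and 4494 endosperm peaks at the 9 long-arm ends. The 18 ends together span 180 Mb, and the interior of the same chromosomes, 1577 Mb long, held 271825 embryo and 88480 endosperm peaks.

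The data are 1 MeDIP-seq library of embryo and 1 of endosperm of the inbred line B73, both from ears taken 14 days after self-pollination. MeDIP-seq enriches sonicated DNA fragments that bind an anti-5-methylcytidine antibody, so a peak marks a stretch of enriched reads and not the state of single cytosines. Each peak has a diffScore, which is minus 10 times the log10 of its MACS p-value and is at least 50. There are no replicates, so the 95% intervals below cover counting error only, and differences between the tissues are differences between these 2 libraries.

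DNA methylation in maize is dense over transposable elements, which fill most of the genome and are thickest around the centromeres. Genes are more frequent towards the chromosome ends, where elements sit between genes, and the starts of active genes carry little methylation. The ends also hold tandem repeats, among them telomeric and subtelomeric arrays and, on some arms, the satellite arrays known as knobs, and short reads from repeats cannot always be placed at 1 position. Embryo and endosperm both arise at double fertilization, and in flowering plants the maternal genome of the endosperm loses methylation at many loci.

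Terminal DNA had fewer methylation peaks than the interior in both tissues. Embryo had 157.4 peaks per Mb at the ends (155.6 to 159.3) and 172.3 in the interior (171.7 to 173.0), a ratio of 0.913 (0.902 to 0.925). Endosperm had 53.3 peaks per Mb at the ends (52.2 to 54.4) and 56.1 in the interior (55.7 to 56.5), a ratio of 0.950 (0.930 to 0.971). The difference was thus small, and it was not the same on both arms.

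Long-arm ends had the lower density. They held 151.6 embryo peaks per Mb, 0.880 of the interior (0.865 to 0.895), and 49.9 endosperm peaks per Mb, 0.890 of the interior (0.864 to 0.917). At the short-arm ends, embryo had 163.3 peaks per Mb, 0.947 of the interior (0.932 to 0.963). Endosperm had 56.7 peaks per Mb there, and its ratio of 1.01 (0.982 to 1.04) did not differ from the interior beyond counting error. On 8 of 9 chromosomes the short-arm end held more peaks than the long-arm end, in embryo and in endosperm alike.

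Density varied among the 18 ends, between 143.7 and 184.1 peaks per Mb in embryo and between 46.3 and 64.8 in endosperm. Single windows of 1 Mb varied about as much at the ends as in the interior, with an SD of 23.9 peaks over 180 terminal and 25.3 over 1573 interior windows in embryo, and of 14.6 and 14.4 in endosperm. All 9 long-arm ends were below the interior of their own chromosome in both tissues. Of the short-arm ends, 6 were below it in embryo and 4 in endosperm. The 3 short-arm ends above it in embryo were those of chromosome 4 (184.1 against 175.7 peaks per Mb in the interior), chromosome 6 (182.4 against 171.5) and chromosome 9 (174.0 against 170.0). These ends were also above their interiors in endosperm, with ratios of 1.14, 1.07 and 1.16, and were joined there by the short-arm ends of chromosome 2 (1.06) and chromosome 10 (1.03). The excess was within counting error for chromosome 9 in embryo and for chromosomes 2, 6 and 10 in endosperm. The long-arm end of chromosome 8 had the lowest density in both tissues, 143.7 embryo and 46.3 endosperm peaks per Mb.

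**Figure D1:**
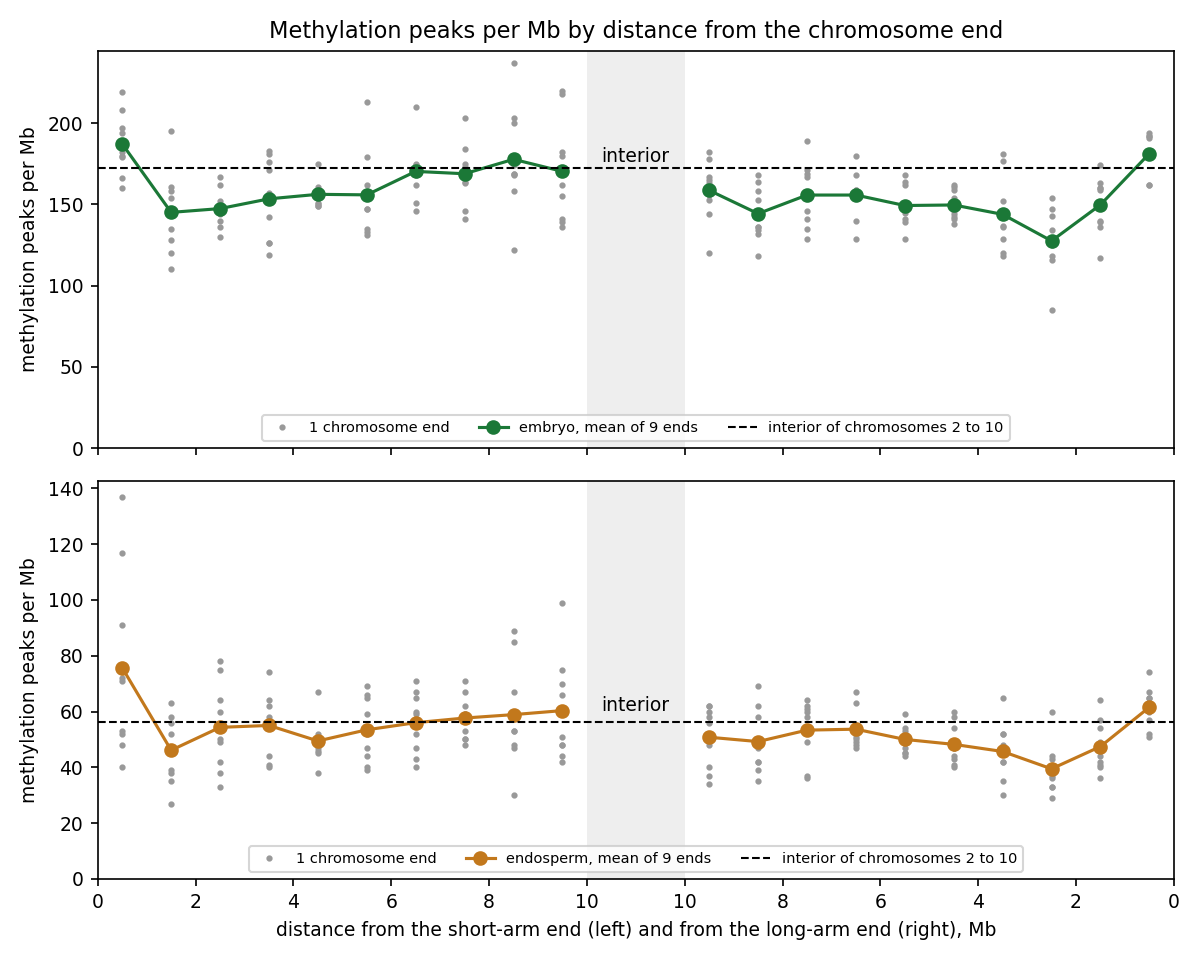
Methylation peaks per Mb (y axis, from 0) in each 1-Mb step from the short-arm end (left, distance in Mb) and the long-arm end (right), embryo above and endosperm below; grey points are single chromosome ends, coloured points the mean of 9 ends, and the dashed line the interior of chromosomes 2 to 10. The outermost Mb lies above the interior on both sides, the next steps lie below it, and the lowest mean is at 2 to 3 Mb from the long-arm end, with 127.6 embryo and 39.4 endosperm peaks per Mb.

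Within the 10 Mb, the density did not change evenly with distance. The outermost Mb was above the interior, with 184.3 embryo peaks per Mb (ratio 1.07, 1.03 to 1.11) and 68.6 endosperm peaks per Mb (ratio 1.22, 1.16 to 1.29). Between 1 and 5 Mb the ratio was 0.851 in embryo (0.834 to 0.868) and 0.859 in endosperm (0.831 to 0.889), and between 5 and 10 Mb it was 0.932 in embryo and 0.969 in endosperm. Dense outermost DNA was thus followed by a trough, then by a partial return to the level of the interior. Chromosome lengths were taken from the last peak, so the outermost long-arm step begins with a peak by construction, which adds at most 1 peak for an end.

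Most ends showed a step down behind the outermost Mb. The outermost Mb held more embryo peaks than the next Mb at 18 of 18 ends and more endosperm peaks at 16 of 18. The exceptions in endosperm were the short-arm ends of chromosome 4, with 52 peaks in the outermost and 56 in the next Mb, and of chromosome 8, with 48 and 63. At the short-arm ends of chromosomes 5 (40 and 39) and 7 (53 and 52) and the long-arm end of chromosome 3 (65 and 64), endosperm differed by 1 peak only. Some embryo steps were small too. The smallest were at the long-arm end of chromosome 8 (162 and 159) and the short-arm ends of chromosomes 5 (160 and 154) and 8 (166 and 158). Compared with the interior of its own chromosome, the outermost Mb was denser at 14 ends in embryo and at 12 in endosperm.

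On the short arms, the outermost Mb averaged 187.2 embryo peaks, and the following 9 steps averaged 145.1, 147.4, 153.4, 156.2, 155.9, 170.3, 168.9, 177.8 and 170.3. The same steps in endosperm averaged 75.7, then 46.1, 54.3, 55.0, 49.4, 53.4, 56.0, 57.7, 58.9 and 60.3 peaks per Mb. Both libraries were lowest at 1 to 2 Mb and had returned to about the interior level by 6 to 7 Mb.

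At the long-arm ends the trough was deeper and the return smaller. From the end inwards, embryo averaged 181.3, 149.8, 127.6, 143.9, 149.7, 149.3, 155.8, 155.8, 144.3 and 158.7 peaks per Mb. Endosperm averaged 61.6, 47.4, 39.4, 45.7, 48.2, 50, 53.7, 53.3, 49.2 and 50.8. The step at 2 to 3 Mb was the lowest in both, at 0.740 of the interior in embryo and 0.703 in endosperm. In embryo all 9 long-arm windows of this step were below the interior of their chromosome, and in endosperm 8 of 9 were.

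**Figure D2:**
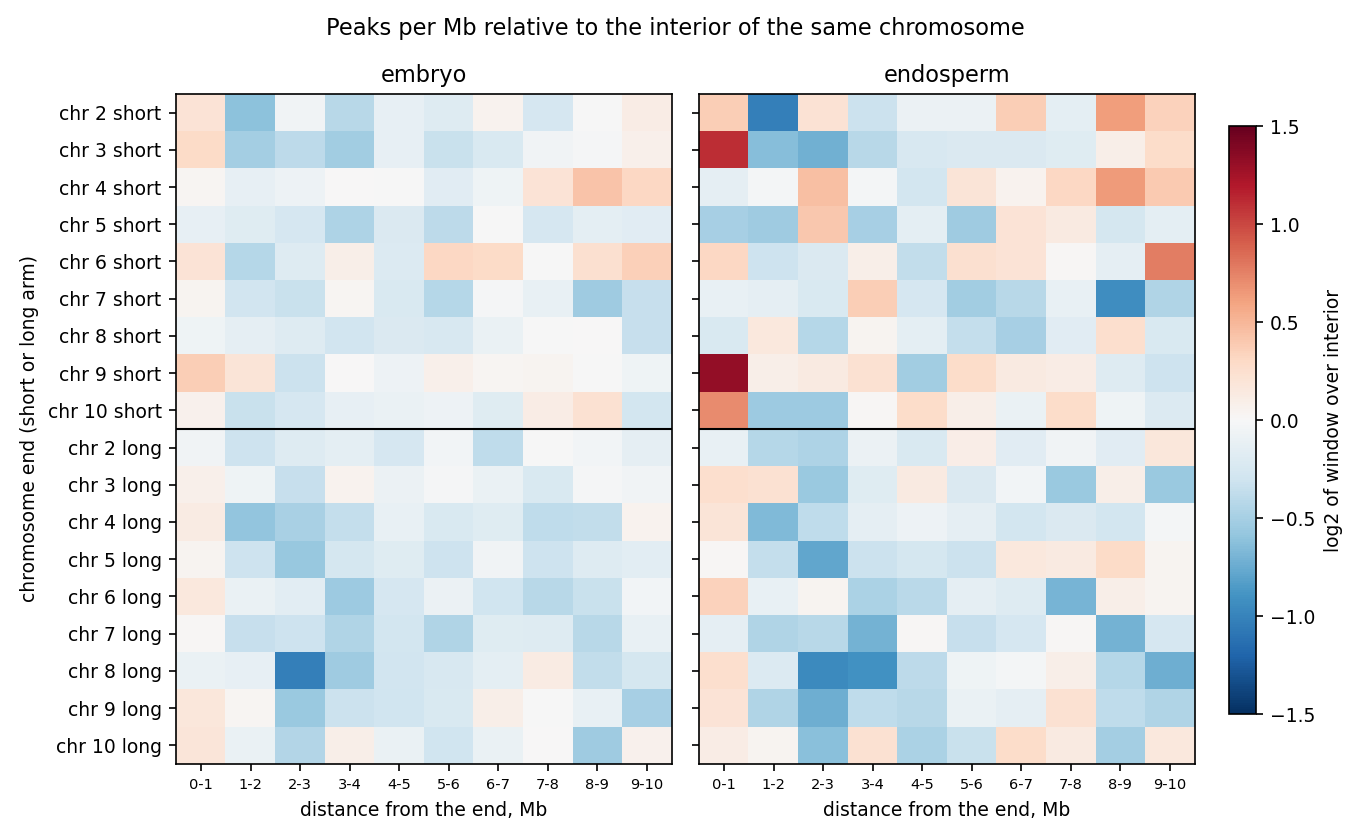
Peaks per Mb in each 1-Mb window of the 18 chromosome ends as the log2 of the window over the interior of its own chromosome (red above, blue below), with embryo on the left and endosperm on the right, distance from the end in Mb along x and short-arm ends above long-arm ends. The first column is mostly red and the next 2 mostly blue, and the darkest windows are the outermost Mb of the short arms of chromosomes 9 and 3 in endosperm (137 and 117 peaks), the window at 1 to 2 Mb of the short arm of chromosome 2 in endosperm (27 peaks) and the window at 2 to 3 Mb of the long arm of chromosome 8 in embryo (85 peaks).

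Single windows of the ends fell below anything in the interior. The window at 2 to 3 Mb from the long-arm end of chromosome 8 (positions 172791000 to 173790999) held 85 embryo peaks, fewer than the lowest of 1573 interior windows (107), and 29 endosperm peaks. The window at 1 to 2 Mb of the short arm of chromosome 2 (1000001 to 2000000) had 27 endosperm peaks, 1 below the lowest interior window (28), and with 110 embryo peaks it was the second lowest terminal window of embryo. These 2 windows were therefore poor in both libraries. Whether bases that were not sequenced or could not be mapped lie in them was not tested, since the genome build of the lists is not given in the sources used here.

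The richest embryo window was at 8 to 9 Mb on the short arm of chromosome 4 (8000001 to 9000000), with 237 peaks. It also held 89 endosperm peaks, and 0.763% of interior windows had more embryo peaks and 1.34% more endosperm peaks. The richest endosperm window was the outermost Mb of the short arm of chromosome 9 with 137 peaks, which 0.381% of interior windows exceeded. Its 219 embryo peaks were less extreme, as 3.50% of interior windows had more.

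Windows rich in embryo peaks tended to be rich in endosperm peaks. Spearman's rho between the libraries was 0.706 over the 180 terminal windows, 0.684 over the 162 windows without the outermost Mb and 0.647 over 1573 interior windows. These are descriptions, as the windows share the 2 libraries, the mapping and the base composition of their DNA.

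The outermost Mb was resolved further in steps of 100 kb. At the short-arm ends, the first 3 steps held 195, 210 and 217 embryo peaks over the 9 ends, and the other 7 held between 141 and 168. In endosperm the first 3 held 92, 105 and 94 peaks, and the other 7 between 45 and 74. The high density there lay largely within 300 kb of the end, at 1.26 to 1.399 times the interior in embryo.

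Long-arm ends showed a sharper edge in endosperm. The outermost 100 kb had 99 endosperm peaks, or 110.0 per Mb, with a median of 13 peaks over the 9 ends and a range of 4 to 19. Each of the next 9 steps held between 34 and 68 peaks. Embryo changed less, with 174 peaks in the outermost 100 kb and between 130 and 190 in the others.

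**Figure D3:**
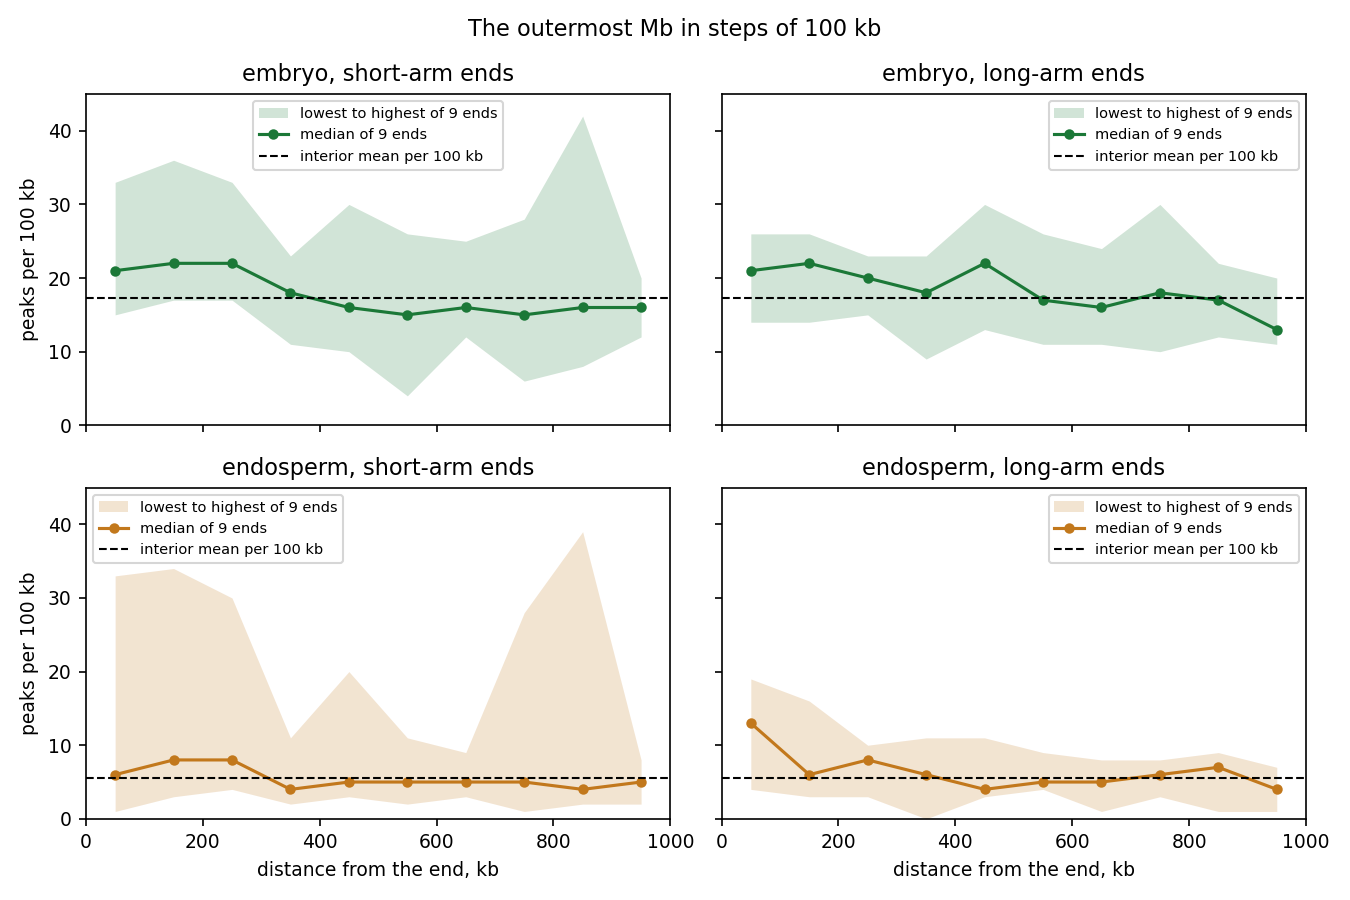
Peaks per 100 kb (y axis) in the outermost Mb against the distance from the end in kb, embryo above and endosperm below, with short-arm ends on the left and long-arm ends on the right; the line is the median of 9 ends, the shading runs between the lowest and the highest end, and the dashed line is the interior mean. The median at the long-arm ends of endosperm is 13 peaks in the first step, and the shading of the short-arm ends reaches 28 to 39 peaks in endosperm in the steps that hold the dense blocks of chromosomes 9 and 3.

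At the short-arm ends, part of the outermost density came from a few compact blocks. Steps of 100 kb with at least 20 endosperm peaks, a limit chosen after the values were seen, made up 6 of 180 steps of the outermost Mb (3.33%) and 68 of 15766 interior steps (0.431%), 22 of which lay between 10 and 13 Mb on chromosome 6. The 6 steps form 3 blocks, on chromosomes 2, 3 and 9. A block on chromosome 10 was added for its long peaks, also after its values were seen, so these blocks are described here without a test.

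The block of chromosome 9 spanned the first 300 kb (positions 1 to 300000) and held 102 embryo and 97 endosperm peaks. Its peaks were long, with medians of 550 bp in embryo and 697 bp in endosperm, and 83.3% of its embryo peaks overlapped an endosperm peak. Embryo peaks covered 22.2% of its bases and endosperm peaks 24.97%. The 2 libraries were thus nearly equal in this block, with 1.05 embryo peaks for each endosperm peak (0.797 to 1.39). Its steps were picked for many endosperm peaks, and that choice itself favours a low ratio.

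On chromosome 3 the block lay between 700 and 900 kb (700001 to 900000), with 70 embryo and 67 endosperm peaks. In contrast to chromosome 9, its peaks were short, with medians of 216.5 bp in embryo and 229 bp in endosperm, and none reached 1 kb. The block of chromosome 2, between 400 and 500 kb (400001 to 500000), had 30 embryo and 20 endosperm peaks, and 11 of the endosperm peaks were 1 kb or longer. In the first 300 kb of chromosome 10 there were 64 embryo and 46 endosperm peaks, and 17 embryo and 14 endosperm peaks were 1 kb or longer. Dense outermost blocks therefore differed in their make-up, and which repeats or genes they hold was not tested.

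These 4 blocks, 900 kb in all, held 8.02% of the embryo peaks and 18.6% of the endosperm peaks of the outermost Mb. Without them the outermost ratio to the interior was 1.04 in embryo (0.999 to 1.07), against 1.07 with them, and 1.05 in endosperm (0.984 to 1.11), against 1.22 with them, so that neither was above the interior beyond counting error. On the short-arm side alone it was 1.02 in embryo (0.965 to 1.07) and 0.992 in endosperm (0.905 to 1.09) without them. The long-arm side holds no block. Its outermost ratio was 1.05 in embryo (1.002 to 1.10) and 1.10 in endosperm (1.01 to 1.19), slightly above the interior in both. Since the blocks were picked for many endosperm peaks or for long ones, and the interior kept its own dense steps, leaving them out had to lower the endosperm ratio.

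Peak length was the same at the ends and in the interior to within a few bp. The median was 272 bp at the ends and 271 bp in the interior in embryo, and 210 bp at the ends and 212 bp in the interior in endosperm. Long peaks were more frequent at the ends. In embryo, 0.614% of terminal peaks (0.529 to 0.712) and 0.473% of interior peaks (0.448 to 0.499) were 1 kb or longer. In endosperm the shares were 1.32% (1.11 to 1.57) at the ends and 0.902% (0.842 to 0.966) in the interior.

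These long peaks were concentrated in the outermost Mb of the short arms. There, 54 of 1685 embryo peaks (3.20%) and 55 of 681 endosperm peaks (8.08%) were 1 kb or longer. Without the 4 blocks, 1 of which was chosen for its long peaks, 10 embryo peaks and 1 endosperm peak of that length remained in the outermost Mb of the short arms. From 1 to 10 Mb, 0.436% of embryo peaks (0.361 to 0.525) and 0.813% of endosperm peaks (0.642 to 1.03) were that long, which did not differ from the interior beyond counting error.

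The longest terminal peaks of both libraries lay at 1 place on the short arm of chromosome 10. The embryo peak ran from 141241 to 147984 (6744 bp, diffScore 227.8) and overlapped the longest endosperm peak, from 142935 to 147270 (4336 bp, diffScore 303.3). On the long-arm side the longest embryo peak was on chromosome 4 (241458919 to 241463666, 4748 bp, diffScore 79.2), 9076 bp from the end. The longest endosperm peak of that side was on chromosome 2 (233523976 to 233527086, 3111 bp, diffScore 73.4), 3528337 bp from the end. Length and score did not go together in these 4 peaks, 2 of which had scores near the median of their library.

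Scores were somewhat higher at the ends. The median diffScore was 90.9 at the ends and 87.4 in the interior for embryo peaks, and 68.9 at the ends and 67.1 in the interior for endosperm peaks. The median of an end was above that of its own interior at 17 of 18 ends in embryo and 14 of 18 in endosperm. A diffScore of 200 or more was found for 14.0% of terminal (13.6 to 14.4) and 11.98% of interior embryo peaks (11.9 to 12.1). In endosperm these shares were 4.32% at the ends (3.94 to 4.75) and 3.35% in the interior (3.23 to 3.47).

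The lower density of the ends was most marked among weak peaks. For embryo, the ratio of terminal to interior density was 0.866 for scores of 50 to 100 (0.852 to 0.881), 0.947 for 100 to 200 (0.926 to 0.968) and 1.06 for 200 and above (1.03 to 1.10). For endosperm it was 0.915 (0.894 to 0.937), 1.08 (1.03 to 1.14) and 1.23 (1.11 to 1.36) in the same classes. Taken over both arms, strong peaks were therefore more frequent per Mb at the ends than in the interior, in both libraries. In endosperm this held for the short arms only. Their ends had 255 peaks of 200 and above over 90 Mb. The long-arm ends had 160 over 90 Mb, which was not above the interior density of 1.88 per Mb.

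In endosperm, this excess of strong peaks was limited to the outermost Mb. From 1 to 10 Mb the density of endosperm peaks scoring 200 or more was 1.001 times that of the interior (0.890 to 1.13), and in embryo it was 1.05 times (1.01 to 1.09). Single steps of 1 Mb varied around this in endosperm. The share of such peaks was highest at 9 to 10 Mb of the short arms, at 6.45% (4.67 to 8.83). It was lowest at 2 to 3 Mb of the long arms, at 0.845% (0.288 to 2.45), against 3.35% in the interior. The outermost Mb held 110 endosperm peaks of this class, 85 of them on the short-arm side, and 64 of the 110 lay in the 4 blocks.

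**Figure D4:**
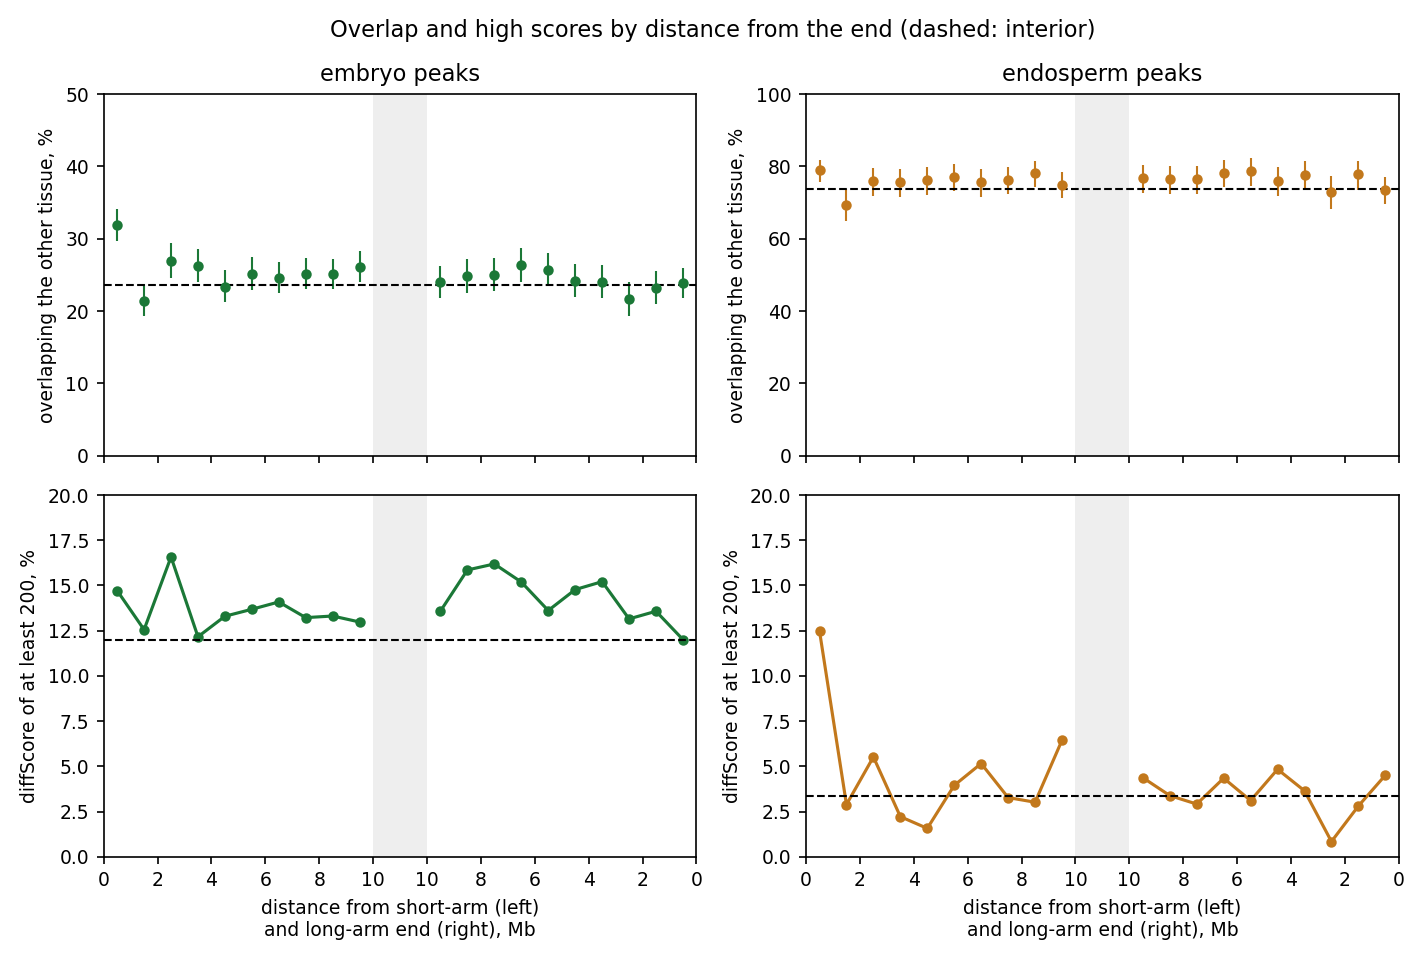
Share of peaks that overlap a peak of the other tissue (above, %, with 95% Wilson intervals) and share with a diffScore of at least 200 (below, %) by distance in Mb from the short-arm end and the long-arm end, for embryo peaks (left) and endosperm peaks (right); the dashed lines are the interior. The outermost Mb of the short arms stands highest in overlap in embryo, at 31.9%, and highest in strong peaks in endosperm, at 12.5%.

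The strongest terminal peaks were shared by the tissues. A cluster of 4 embryo peaks lay between 6261122 and 6293985 on the short arm of chromosome 4. The peaks at 6261122, 6275117 and 6292122 were listed at a diffScore of 3100 and that at 6281610 at 2815. Each overlapped an endosperm peak, with scores of 2485, 3100, 2227 and 3100 in order of position. Over both lists 29 peaks stood at exactly 3100 and 1 above it, so that 3100 is a tied value at which scores cannot be ranked. The next in both tissues lay on the short arm of chromosome 7, where an embryo peak at 705997 to 707474 (diffScore 2506) overlapped an endosperm peak at 705990 to 707449 (2208). On the long-arm side the strongest pair was at the very end of chromosome 8, with an embryo peak of 1421 bp (175789547 to 175790967, diffScore 2026) and an endosperm peak of 1382 bp (175789618 to 175790999, 1918).

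Over all sequences, 23.8% of embryo peaks shared at least 1 bp with an endosperm peak and 74.3% of endosperm peaks with an embryo peak. At the ends, 7092 of 28339 embryo peaks did so, or 25.03% (24.5 to 25.5), against 23.6% in the interior (23.4 to 23.8). For endosperm it was 7315 of 9596 terminal peaks, 76.2% (75.4 to 77.1), against 73.8% in the interior (73.5 to 74.1). Terminal shares were thus above the interior and near the values of all peaks, by 1.43 percentage points in embryo and 2.41 in endosperm relative to the interior.

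Overlap was much more frequent among peaks of higher score, so the ends and the interior were also compared within score classes. Among embryo peaks of 50 to 100, 12.8% overlapped at the ends and 12.99% in the interior, among those of 100 to 200 30.6% and 30.03%, and among those of at least 200 61.9% and 60.2%. The differences of the ends from the interior were -0.19 (-0.72 to 0.37), 0.59 (-0.43 to 1.63) and 1.71 percentage points (0.0981 to 3.30) in these classes, so that only the strongest class of embryo stood apart beyond counting error. This depended on the outermost Mb. From 1 to 10 Mb the differences were -0.65 (-1.21 to -0.07), 0.19 (-0.89 to 1.28) and 1.48 points (-0.22 to 3.16). There the weakest class was below the interior and the strongest was within counting error. For endosperm the shares were 71.3% at the ends and 69.4% in the interior for scores of 50 to 100, 93.2% and 92.7% for 100 to 200, and 98.6% and 98.3% for 200 and above. The difference was 1.96 points in the weakest class (0.879 to 3.03), which held 78.7% of the terminal endosperm peaks, and was within counting error in the others.

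By position, overlap was highest for embryo peaks in the outermost Mb of the short arms, at 31.9% (29.7 to 34.1), and 24.2% without the 4 blocks. The outermost Mb of the long arms had 23.8% (21.8 to 26.0), close to the interior. Within it the outermost 100 kb had 36.8% (29.97 to 44.2), 64 of 174 embryo peaks, and the next 9 steps between 14.7 and 26.5%. Endosperm shares lay between 69.4 and 79.0% over the 20 steps of 1 Mb, with the lowest at 1 to 2 Mb and the highest in the outermost Mb, both on the short arms.

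Among terminal peaks scoring 200 or more, 1507 of 3957 embryo peaks (38.1%) overlapped no endosperm peak. In endosperm, 6 of 415 (1.45%) overlapped no embryo peak. The interior shares were near these, at 39.8% of 32561 embryo peaks and 1.65% of 2965 endosperm peaks. The strongest embryo peak that overlapped no endosperm peak was on the short arm of chromosome 7 (5040166 to 5041074, 909 bp, diffScore 792.0), 65146 bp from the nearest endosperm peak. The strongest endosperm peak with no embryo peak over it was on the long arm of chromosome 6 (160757570 to 160758354, 785 bp, diffScore 383.2), 11093 bp from the nearest embryo peak.

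Joined across tissues, the terminal peaks formed 30494 methylation regions. Peaks of both tissues made up 22.8% (22.4 to 23.3), embryo alone 69.7% (69.2 to 70.2) and endosperm alone 7.48% (7.19 to 7.78). In the interior, 21.4% of 293790 regions held both, 70.7% embryo alone and 7.88% endosperm alone. Per Mb, the ends had 38.7 shared regions and 118.0 with embryo alone and 12.7 with endosperm alone, against 39.9 shared, 131.7 with embryo alone and 14.7 with endosperm alone in the interior. Regions of 1 tissue alone were thus fewer per Mb at the ends, and shared regions differed less.

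Embryo exceeded endosperm in every terminal window, as it did in every interior window. The ends had 2.95 embryo peaks for each endosperm peak (2.89 to 3.02), against 3.07 in the interior (3.05 to 3.10), and the ratio was below that of the own interior at 13 of 18 ends. A lower ratio was not particular to the ends. It was 2.86 at 10 to 20 Mb from the nearer end, which includes the dense stretch of chromosome 6, and 2.96 at 20 to 30 Mb. Between 30 and 70 Mb it was 3.06 to 3.19. Within the ends, the ratio was 2.47 in the outermost Mb of the short arms (2.26 to 2.70) and 2.95 in that of the long arms (2.68 to 3.24). Single windows ran between 1.60, in the outermost Mb of the short arm of chromosome 9, and 4.46, at 9 to 10 Mb from the long-arm end of chromosome 3 (165 embryo and 37 endosperm peaks). Interior windows had a wider range, between 1.34 and 5.15. At a diffScore of at least 200 the ratio was 9.53 at the ends and 10.98 in the interior, and this value depends on how scores scale in each library.

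At the short-arm ends, where the distance is counted from the first base, the first embryo peak lay between 0 and 7374 bp from the end (median 1382), with the farthest on chromosome 2. The first endosperm peak there lay between 0 and 61007 bp away (median 3362). The farthest was that of chromosome 4 (61008 to 61451), where the first embryo peak began at 1209. At the short-arm end of chromosome 3 the first endosperm peak began at 23371 and the first embryo peak at 1873. At the other 7 short-arm ends the first endosperm peak was less than 10 kb away. Long-arm ends were set by the last peak of either tissue, so their distances, up to 1074 bp in embryo and 3927 bp in endosperm, say only how far apart the last peaks of the tissues lay.

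Stretches without a peak were also found at the ends. The longest for embryo was 124021 bp on the short arm of chromosome 7 (5387475 to 5511495), against 101130 bp for the longest of the interior. For endosperm the longest terminal stretch was 208772 bp, also on the short arm of chromosome 7 (9656404 to 9865175), and the longest of the interior was 265117 bp. The median distance between neighbouring peaks was similar, 3267 bp at the ends and 3297 bp in the interior for embryo, and 10469 and 10890 bp for endosperm. At the 90th percentile the terminal stretches were longer, with 15269 bp at the ends and 13227 bp in the interior for embryo and 46819 and 43127 bp for endosperm. The distances between peaks were thus more spread out at the ends.

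Finally, the ends were set against the rest of the arms in steps of 10 Mb from the nearer end. Embryo density was lowest in the first step, with 157.4, 163.9, 166.3, 167.7, 174.4, 175.9 and 172.0 peaks per Mb out to 70 Mb, so that the density was higher in each step out to 50 to 60 Mb. Endosperm had 53.3, 57.3, 56.2, 53.9, 55.4, 55.2 and 56.2 peaks per Mb and no such gradient, and its first step did not differ from the step at 30 to 40 Mb beyond counting error (52.2 to 54.4 and 52.8 to 55.0).

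Higher scores and overlap were not particular to the terminal 10 Mb. Peaks of at least 200 numbered 21.98 per Mb in the first step and 23.7 in the second for embryo, and 2.31 and 3.84 for endosperm. The second step contains the dense stretch of chromosome 6 between 10 and 13 Mb, with 246 of these endosperm peaks, and without it the second step had 22.3 embryo and 2.52 endosperm peaks of that class per Mb. Overlap was 25.03% in the first and 26.5% in the second step for embryo, and 76.2% and 76.1% for endosperm. Without the stretch of chromosome 6, the second step had 25.04% in embryo and 75.4% in endosperm. Between 30 and 70 Mb the overlap was lower, at 22.8 to 23.6% in embryo and 73.5 to 74.5% in endosperm.

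**Figure D5:**
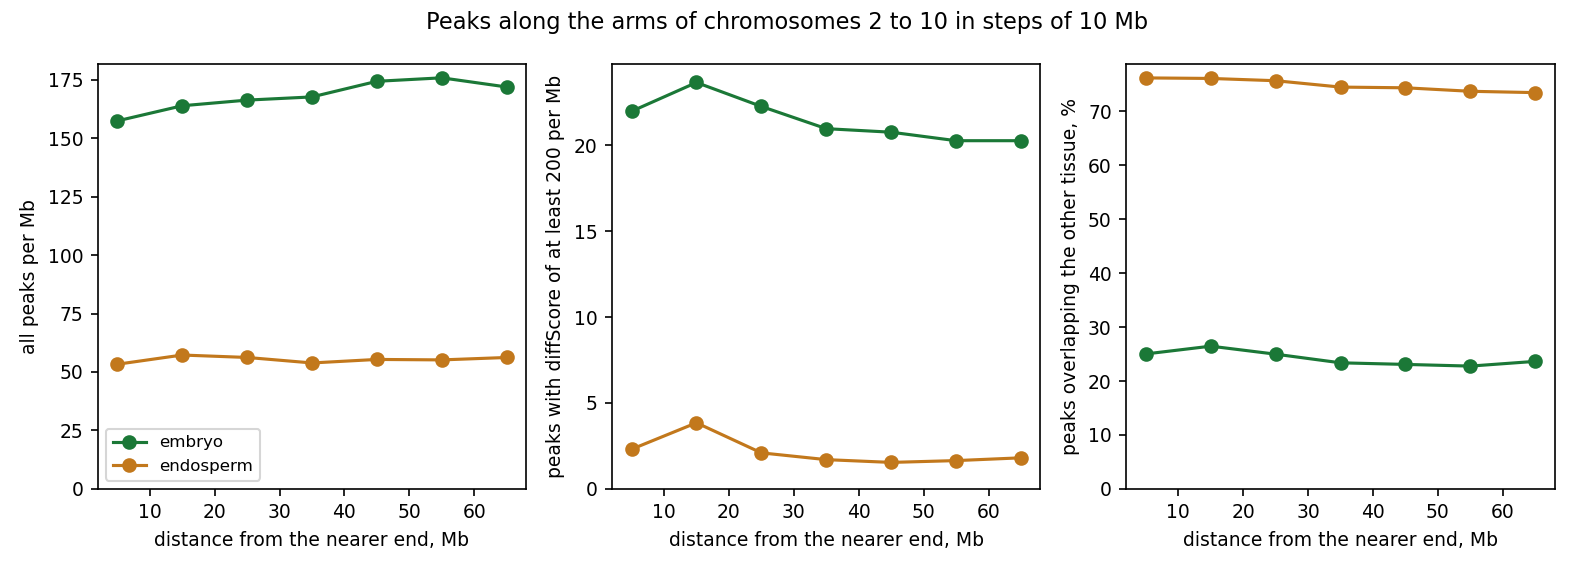
All peaks per Mb (left), peaks with a diffScore of at least 200 per Mb (middle) and the share of peaks overlapping the other tissue in % (right) against the distance from the nearer end in Mb, in steps of 10 Mb over chromosomes 2 to 10, with all axes from 0 and 180 Mb in each step. Embryo density is 157.4 peaks per Mb in the first step and 175.9 at 50 to 60 Mb, while strong peaks and overlap are highest within 30 Mb of the ends.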

How the data were processed

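The data are MeDIP-seq libraries of B73, 1 from embryo and 1 from endosperm. Reads were filtered by the authors with fastx and aligned with Bowtie2 (version 2.0.5) and peaks were listed for either library with MACS at a p-value of at most 1e-05. The deposited score of each peak is its diffScore, and scores were compared within a library only. The deposited lists give no read number per peak, and the depth behind a peak was not used here. The genome build and any input library are not given in the sources used here, and no sequence or gene was read at the peaks.

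Peaks were placed by their start, and chromosome length was the last peak end in either list. Printed positions are 1-based. Overlap meant at least 1 shared bp. Shares have 95% Wilson intervals and densities exact Poisson intervals. Intervals of ratios were converted from the Wilson interval of 1 count as a share of both counts. No test was made, as neither windows nor chromosomes are replicates. Windows, ends and peaks named in the text were the extremes of each measure. The members and measures were chosen with earlier results of these data known. Alternatives were the minimum diffScore, the width of the ends, joining of peaks, the overlap asked for, the interior used, and leaving out each chromosome.

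Calculations were done in Python 3.11.15 (scipy 1.17.1, pandas 2.3.3, numpy 2.4.6) and plots in matplotlib 3.10.9. The code was tested on simulated data, and overlaps against bedtools 2.31.1, and 10 of 10 checks gave the known number.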

Additional observations from a re-analysis of the deposited data

How the results depend on the processing

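Over 11 results and their alternatives, 158 of 218 values stayed within the 95% counting interval of the reported value, 49 moved beyond it and 11 were called reversed. A value was called reversed only where the reported interval excluded no difference. Changes of sign in the embryo length difference, whose interval did not, are among the 49. Of the 218 values, 99 left out 1 chromosome and share most of their peaks with the reported value, and 2 of these did not stay within the interval. The tissue ratio of the ends could not change where only the interior was altered. No paired analysis was possible because each tissue has 1 library. No cause of a change below was tested, except where the alternative itself removes peaks.

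The minimum diffScore mattered most. With scores of at least 100, the ratio of terminal to interior density was 0.981 in embryo and 1.11 in endosperm, and with at least 200 it was 1.06 and 1.23, so that it turned in endosperm at 100 and in embryo at 200. The outermost ratio was 1.14 and 1.81 (embryo, endosperm) at 100 and 1.19 and 3.25 at 200. Terminal minus interior median length was -7 and -7.5 bp at 100, and -22 bp in embryo at 200, and that of the diffScore was 5.70 and 3.23 at 100 and 1.12 and -7.21 at 200. The minimum applied to both libraries, so overlap was then counted only with peaks of the other tissue past the same minimum. On that basis the endosperm overlap difference was 1.25 points at 100 and -1.25 at 200, with intervals that included 0. The tissue ratio of the ends was 6.10 and 9.53. Within score classes, overlap was counted with all peaks of the other tissue. The difference there was -0.186 (embryo, 50 to 100), 0.590 (embryo, 100 to 200), 0.529 (endosperm, 100 to 200) and 0.207 points (endosperm, 200 and above).

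The area compared came next. Ends of 5 Mb gave a density ratio of 0.898 in embryo and length differences of -2 bp in embryo and -4 bp in endosperm. Ends of 20 Mb gave ratios of 0.926 and 0.988, an embryo overlap difference of 2.51 points, an endosperm score difference of 2.83 and an endosperm length difference of 2 bp. Against only the interior at 10 to 20 Mb, the embryo ratios were 0.960 (terminal) and 1.12 (outermost), the overlap differences -1.44 points in embryo and 0.0993 in endosperm, the score differences -0.30 and -1.31 and the length differences -1 and -6 bp. That interior includes the dense stretch of chromosome 6. Without the stretch its overlap was 25.04% in embryo and 75.4% in endosperm, against 25.03% and 76.2% at the ends. Its median diffScore was then 90.4 in embryo and 69.1 in endosperm, against 90.9 and 68.9 at the ends. Its median length was 270 and 210 bp, against 272 and 210 bp. The short-arm side alone had ratios of 0.947 in embryo and 1.01 in endosperm, with 1.35 for the outermost Mb of endosperm, and the long-arm side alone 0.880, 0.890 and 1.10.

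Joining peaks within 500 bp gave 0.926 and 1.13 for the terminal and outermost ratio of endosperm, 0 bp for its length difference, 4.78 for the embryo score difference and 2.80 for the tissue ratio. By covered bases, the outermost ratio was 1.18 in embryo and 1.61 in endosperm, and the terminal ratio of endosperm 0.972. Over the chromosomes left out in turn, the embryo length difference ran between -1 (without chromosome 2) and 2 bp, and the outermost endosperm ratio between 1.15 (without chromosome 9) and 1.27. With 2 alternatives chosen after seeing the data, the outermost endosperm ratio was 1.05 without the 4 blocks, and without the outermost Mb the terminal ratios were 0.896 and 0.920 and the length differences -1 and -4 bp.

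The lists hold only peaks past the p-value limit of the authors, so weak methylation and DNA where reads could not be placed look alike. Depth per peak, copy number and gaps of the assembly were not used here.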

Other observations

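The ends of chromosome 1, which are not among the ends described above, had a profile that was alike in part. The outermost Mb of its short arm held 209 embryo peaks, against 190 in the next Mb, and that of its long arm 188, against 141. For endosperm the counts were 82 in the outermost and 67 in the next Mb of the short arm, and 60 and 47 on the long arm. The interior of chromosome 1 had 172.4 embryo and 55.3 endosperm peaks per Mb. On the short arm the next Mb was thus still above the interior in both libraries, while on the long arm it was below. Both ends were below the interior of chromosome 1 over 10 Mb, at 0.900 (short) and 0.886 (long) of it in embryo and at 0.910 and 0.811 in endosperm. The next observations are likewise values without an explanation.

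Terminal embryo peaks without an overlap lay at a median of 6460 bp from the nearest endosperm peak, against 6303 bp in the interior. Of them, 36.7% at the ends and 33.9% in the interior were more than 10 kb away. Terminal endosperm peaks without an overlap were much closer to the other tissue, at a median of 1142 bp from the nearest embryo peak, against 1362 bp in the interior.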
